A study of Mus musculus with 32 samples.

Results

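Mouse embryonic stem cells lacking *Etv5*, *Rbpj* and *Tcf3* (ETR-tKO) were compared with parental Rex1-GFPd2 reporter cells (RGd2) that had been without 2i for 16 h (N16h), both in the basal medium N2B27. The comparison uses 6 libraries of total RNA out of 32 in the series, chosen by their labels: ETR-tKO replicates 13, 14 and 15 at passage 5 in N2B27, and RGd2 N16h replicates 22, 23 and 24. The RGd2 cells are wild type for the 3 genes; they were taken from medium with the GSK3 inhibitor CHIR99021 (CH) and LIF, held in 2i (CH with the MEK inhibitor PD0325901) for 48 h, and then placed in N2B27. The ETR-tKO cells had been passaged in N2B27 without inhibitors. Each mutant library is a separate clonal line, made with a pair of CRISPR gRNAs per gene, but replicates 14 and 15 descend from the same *Tcf3* mutant clone, and RGd2 replicate 24 is itself a clone of the parental cells. The groups therefore differ in genotype, in clonal history and in the time spent in N2B27, which cannot be told apart in a single contrast. To place the mutant on the path of exit, RGd2 in 2i (replicates 31, 32 and 33) and RGd2 passaged 5 times in 2i (2i p5, replicates 1, 2 and 3) served as starting points, with 3 libraries each. RGd2 at 72 h in N2B27 (N72h, replicates 7, 8 and 9) is cited where levels later in exit are of use.

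In naive mouse embryonic stem cells, a network of transcription factors that includes NANOG, ESRRB, KLF4, TFCP2L1 and TBX3 holds the cells in an uncommitted state. When the 2 inhibitors are removed, GSK3 and ERK become active, the naive factors decline, and factors of the formative state such as OTX2 and POU3F1 rise before any lineage is chosen. TCF3, encoded by *Tcf7l1*, represses naive genes when β-catenin does not oppose it; ETV5 is an ETS factor of the PEA3 subfamily that is coupled to FGF/ERK signaling; and RBPJ is the DNA-binding partner of Notch, which represses its target genes when Notch is not bound.

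The 6 gRNA target sites are shown because they mark where each gene was targeted in the mutant. How much of each transcript can still be counted was not measured. Bases 5′ to 3′ are in lower case, and the capitals mark the neighbouring PAM. All 6 match coding sequence of the Gencode M21 transcripts on GRCm38.
Rbpj exon 5: tgacctttatccgcttgctgAGG
Rbpj exon 7: gcttgacagtctgcccgtaaTGG
Etv5 exon 8: cgcagctccgccaccccttcAGG
Etv5 exon 9: gaaatacccgcctctcatgtAGG
Tcf7l1 exon 1: tcagctcgtcgttcgctccgAGG
Tcf7l1 exon 3: gagacaggggtccgttggagAGG
The *Rbpj* sites lie at chr5:53645980-53645999 and chr5:53649718-53649737, on the strand opposite to the gene. Those of *Etv5*, a gene on the minus strand, are at chr16:22401804-22401823 on the minus strand and chr16:22399336-22399355 on the plus strand. The *Tcf7l1* sites, at chr6:72788844-72788863 and chr6:72788228-72788247, are both on the plus strand, opposite to the gene. Exons outside the cut region can still give reads, so the count of a targeted gene does not measure its protein.

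Normalized counts are counts divided by a size factor from the spike-in RNAs, so that a fold change refers to equal spike-in and not to equal total RNA. *Etv5* (ENSMUSG00000013089.15) had 13157, 12468 and 11984 normalized counts in RGd2 N16h replicates 22, 23 and 24, and 2547, 1112 and 1843 in ETR-tKO replicates 13, 14 and 15 (log2 fold change −2.77, standard error 0.16, edgeR adjusted p = 1.13e-17). *Rbpj* (ENSMUSG00000039191.12) had 12766, 12629.5 and 12327 normalized counts at N16h and 1559, 2281 and 2348 in the mutant (log2 fold change −2.61, standard error 0.21, edgeR adjusted p = 4.05e-13). *Tcf7l1* (ENSMUSG00000055799.13) had 814, 698 and 548 normalized counts at N16h and 29.1, 120.4 and 107 in the mutant (log2 fold change −3.07, standard error 0.24, edgeR adjusted p = 1.29e-13). Each targeted gene was lower in every mutant library than in every RGd2 library, and none was at 0. Adjusted p-values here and below are two-sided, from the quasi-likelihood test of edgeR, and were adjusted by the Benjamini-Hochberg method over the 18892 genes tested.

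The 6 libraries held between 23096785 and 46695457 counts on genes, and the 32 libraries of the series between 5986857 and 71439411, the lowest being RGd2 2i replicate 33. The root mean square log2 difference between libraries was 0.258 to 0.444 within the 2 groups and 0.98 to 1.05 between them. RGd2 replicate 24 had 182 of 11918 expressed genes more than 2-fold below both other N16h libraries, and ETR-tKO replicate 13 had 118 more than 2-fold below both other mutant libraries. Mitochondrially encoded genes took 12.01% to 14.02% of counts at N16h and 16.73% to 18.69% in ETR-tKO. Spike-ins took 1.25% ± 0.0545 (SD, n = 3) of counts in ETR-tKO and 1.37% ± 0.0422 (SD, n = 3) at N16h, a difference of −0.118 percentage points (exact permutation test, two-sided, p = 0.1, the smallest p that 3 against 3 allows). The general pluripotency factor *Pou5f1*, which encodes OCT4, had 24403, 25026 and 24120.5 normalized counts at N16h and 22774, 26248 and 24051 in ETR-tKO, so this defining marker of the labelled cell type was present in all 6 libraries.

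The triple mutant differed from RGd2 N16h in a large share of the transcriptome. A gene was called when its adjusted p was under 0.05 and its mean FPKM was at least 1 in either group: 3694 genes were higher in ETR-tKO (19.6% of 18892 tested) and 1726 were lower (9.14%). Of the called genes, 1302 were at least 2-fold higher and 530 at least 2-fold lower. Groups were fully separated, with no overlap of libraries, in 5211 of the 5420 called genes (96.1%), in 7037 of the 11918 expressed genes (59%) and in 51.6% of all genes tested. The scaling sets the balance of these calls: with TMM, which assumes that most genes are level, 3378 genes were higher (17.9%) and 3332 lower (17.6%), so that higher genes made up 50.34% of calls in place of 68.15%. The median log2 fold change of all genes tested was 0.12, and TMM shifted it by −0.12, so list medians below are to be read against 0.12. List counts in this contrast are likewise to be read against 19.6% higher and 9.14% lower, or 17.9% and 17.6% with TMM. Those at N16h against 2i are to be read against 5.37% higher and 23.2% lower, or 14% and 15.2% with TMM. For ETR-tKO against 2i p5 the shares are 23.6% and 5.96%, or 14.4% and 16.7% with TMM. A value in brackets after a gene name is its log2 fold change of ETR-tKO against N16h unless another contrast is named.

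Most naive factors that fall during exit were higher in the mutant than at N16h. Of 20 naive pluripotency genes tested, 15 were higher in ETR-tKO than at N16h, 2 were lower and 3 were not called, with a median log2 fold change of 1.25. *Nanog*, a core naive factor, had 4399.7, 4466 and 4567 normalized counts at N16h and 20714, 21967 and 21595 in ETR-tKO (log2 fold change 2.26, standard error 0.11, edgeR adjusted p = 4.68e-20). *Klf4*, a Krüppel-like activator of naive genes, had 547, 533 and 479.9 normalized counts at N16h and 2276, 3034 and 2899.97 in ETR-tKO (log2 fold change 2.39, standard error 0.13, edgeR adjusted p = 7.91e-18). *Tfcp2l1*, a factor downstream of LIF and of GSK3 inhibition, had 4548, 4304 and 4846 normalized counts at N16h and 12819.8, 19599 and 18195 in the mutant (log2 fold change 1.89, standard error 0.14, edgeR adjusted p = 8.3e-15). In each of these genes all 3 mutant libraries exceeded all 3 RGd2 libraries. *Jak3*, a cytokine receptor kinase, had the largest difference of the list, with 157, 147 and 126 normalized counts at N16h and 1039, 749 and 780.1 in ETR-tKO (log2 fold change 2.58, standard error 0.16, edgeR adjusted p = 1.58e-16). *Tbx3*, *Klf2*, *Prdm14*, *Nr5a2* and *Esrrb*, further transcription factors of the network, had log2 fold changes of 2.10, 1.90, 1.65, 1.65 and 1.13. Groups did not overlap in any of these 5 genes. In bulk libraries, a smaller share of cells that express a gene and less RNA per cell cannot be told apart.

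Against 2i p5, the culture in inhibitors at the same passage, naive factors were called in both directions in the mutant. *Nanog* had 29105, 25360 and 20532 normalized counts in RGd2 2i and 16244, 18109 and 16159 in 2i p5, which makes it 2.48 lower on the log2 scale at N16h than in 2i, whereas ETR-tKO was 0.35 above 2i p5. *Tfcp2l1* had 29627, 25410.5 and 21517 normalized counts in 2i and 16552, 18434 and 18001 in 2i p5, and its log2 fold changes were −2.48 between 2i and N16h and −0.07 between 2i p5 and ETR-tKO. The latter was not called (standard error 0.13, edgeR adjusted p = 0.721). *Klf4* had 1509, 1207 and 1389 normalized counts in 2i and 900.2, 979 and 717 in 2i p5, and the mutant exceeded both, at a log2 fold change of 1.66 against 2i p5. Across the list, 15 genes were lower and 2 higher at N16h than in 2i, where 23.2% of all genes tested were called lower and 5.37% higher. In ETR-tKO against 2i p5, 11 were higher and 3 lower, where the calls over all genes were 23.6% higher and 5.96% lower. With TMM 7 were higher and 5 lower, where the calls over all genes were 14.4% and 16.7%. The 3 that were lower, in the direction of exit, were *Dppa3*, a maternal-effect factor of the germline and naive cells, *Prdm14*, a repressor of FGF signaling, and *Tdh*, threonine dehydrogenase, with log2 fold changes of −2.57, −0.60 and −0.84.

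*Gbx2* and *Nr0b1*, both counted among the naive factors, went the other way. *Gbx2*, a homeobox gene, had 1069, 918 and 985 normalized counts at N16h and 202, 346 and 323 in ETR-tKO (log2 fold change −1.78, standard error 0.17, edgeR adjusted p = 2.8e-11). It was also higher at N16h than in 2i, by 2.17 on the log2 scale, and higher in ETR-tKO than in 2i p5, by 1.44. *Nr0b1*, which encodes the nuclear receptor DAX1, had 3893, 3632 and 3204 normalized counts at N16h and 1329, 1919 and 1754 in ETR-tKO (log2 fold change −1.10, standard error 0.13, edgeR adjusted p = 2.24e-09). *Zfp42*, the Rex1 gene in which the reporter sits, was not called, with 8622, 8947 and 8267 normalized counts at N16h and 7773, 10038 and 9781 in ETR-tKO (log2 fold change 0.09, standard error 0.11, edgeR adjusted p = 0.549). At N72h it had 505, 536 and 512, so the 16 h cells had not yet lost it.

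Formative genes were mostly lower in the mutant than at N16h, and 9 of 16 were above 2i p5. Of 16 genes tested, 12 were lower in ETR-tKO than at N16h, 1 was higher and 3 were not called, with a median log2 fold change of −0.99. *Pou3f1*, a POU factor also called OCT6, had 17.9, 13.8 and 24.2 normalized counts in 2i, 7.07, 7.89 and 7.20 in 2i p5, 836, 627 and 436 at N16h and 258, 93.5 and 127 in ETR-tKO (log2 fold change −1.96, standard error 0.23, edgeR adjusted p = 4.47e-09). *Otx2*, a homeobox factor that directs enhancer use in formative cells, had 403, 351 and 303 normalized counts in 2i, 328, 377 and 374 in 2i p5, 2432, 2363 and 2030.2 at N16h and 1235, 1083 and 1213 in ETR-tKO (log2 fold change −0.95, standard error 0.12, edgeR adjusted p = 9.8e-09). For both, the mutant libraries lay above every 2i library and below every N16h library. *Fgf5*, a ligand used as a marker of the postimplantation epiblast, had 190.1, 179 and 103 normalized counts at N16h and 78.3, 57.0 and 56.5 in ETR-tKO (log2 fold change −1.30, standard error 0.29, edgeR adjusted p = 0.000368). *Sall2*, *Foxd3* and *Sox3*, transcription factor genes, had log2 fold changes of −1.03, −1.10 and −1.60 against N16h. At N16h 12 of the 16 genes were higher than in 2i and 0 were lower, where 5.37% and 23.2% of all genes were. In ETR-tKO 9 were higher and 2 lower than in 2i p5, where 23.6% and 5.96% of all genes were. With TMM 8 were higher and 2 lower than in 2i p5, where 14.4% and 16.7% of all genes were. The change from 2i p5 to ETR-tKO was also tested against that from 2i to N16h. This difference was called negative for 5 of the 16 genes and positive for 1, where 2.82% and 30.7% of all genes were. With TMM it was negative for 6 and positive for 0, where 12.1% and 12.5% were.

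Relative to N16h, the formative genes at either extreme were *Pim2* and *Lef1*. *Pim2*, a serine/threonine kinase gene, was the formative gene higher in ETR-tKO, with 789.9, 779 and 591 normalized counts at N16h and 1591, 874 and 964 in the mutant (log2 fold change 0.67, standard error 0.15, edgeR adjusted p = 0.000283). *Lef1*, a TCF-family factor that activates Wnt targets, had 1790.4, 1483 and 1236 normalized counts in 2i, 1388, 1137 and 1094 in 2i p5, 3711, 3393 and 2659 at N16h and 95.3, 44.1 and 53.3 in ETR-tKO (log2 fold change −5.61, standard error 0.21, edgeR adjusted p = 7.25e-23). Every mutant library was thus more than 10-fold below every RGd2 library of 2i, 2i p5 and N16h. *Lin28b*, an RNA-binding repressor of let-7 processing, was the other gene below 2i p5, with 412, 373 and 329.96 normalized counts in 2i p5, 988, 954 and 972 at N16h and 329.6, 196 and 247 in ETR-tKO. For *Pou3f1*, the change from 2i p5 to ETR-tKO was 4.44 on the log2 scale and that from 2i to N16h 5.24, and the difference between the 2 changes was not called (−0.80, standard error 0.69, edgeR adjusted p = 0.365). For *Otx2* the corresponding difference was −0.96 (standard error 0.18, edgeR adjusted p = 3.19e-05), so the mutant's change was the smaller.

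Among 10 genes of general pluripotency, 2 were higher in ETR-tKO, 1 was lower and 7 were not called, with a median of −0.04; with TMM 2 were higher and 4 lower. *Sox2*, the partner of OCT4, had 5704, 4912 and 4626 normalized counts at N16h and 8973, 10154 and 10183 in ETR-tKO (log2 fold change 0.94, standard error 0.12, edgeR adjusted p = 8.86e-09). *Nodal*, a TGFβ-family ligand, had a log2 fold change of 1.07, and *Lin28a*, the paralog of *Lin28b*, of −0.68. *Utf1*, a chromatin-associated factor, was higher at N16h than in 2i (1.65) and in ETR-tKO than in 2i p5 (1.61), and was not called between ETR-tKO and N16h (−0.23, standard error 0.16).

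**Figure D1:**
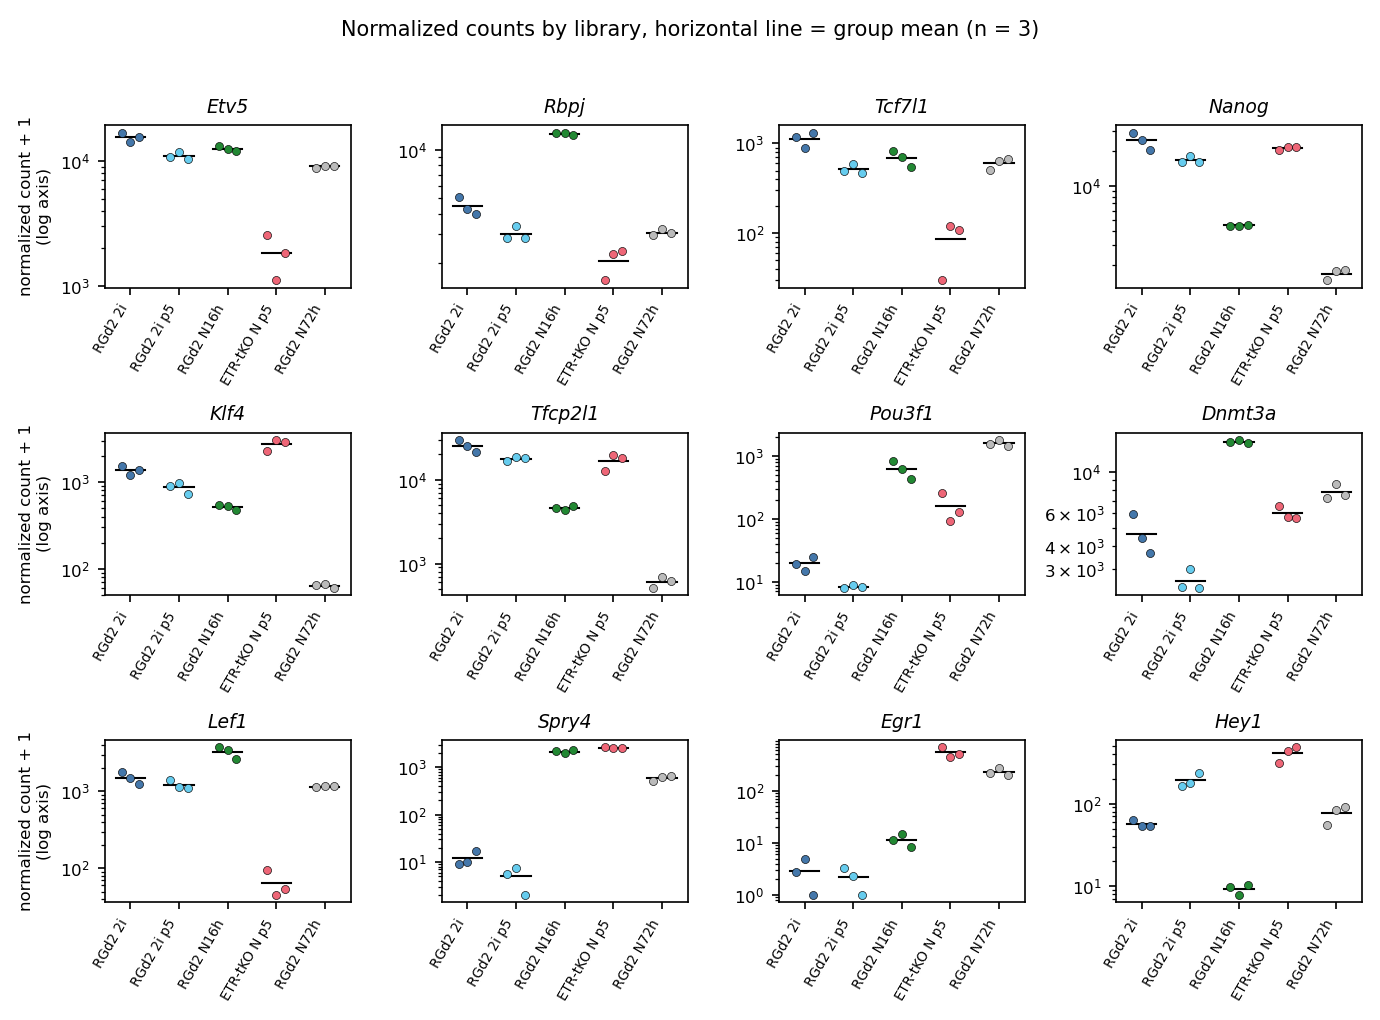
Normalized count plus 1 on a log axis for 12 genes in 5 groups of 3 libraries (points) with the group mean (line): RGd2 2i, RGd2 2i p5, RGd2 N16h, ETR-tKO in N2B27 at passage 5 and RGd2 N72h. The naive genes *Nanog*, *Klf4* and *Tfcp2l1* in ETR-tKO stand above N16h, *Spry4* stands far above both 2i cultures at N16h and in ETR-tKO, and *Lef1* is lower in ETR-tKO than in every other group.

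The feedback inhibitors of ERK, which are transcribed when ERK is active and damp the pathway, were expressed in the mutant, on both sides of their N16h levels. Of 14 genes tested, 4 were higher in ETR-tKO than at N16h, 3 were lower and 7 were not called, with a median of 0.03; with TMM 3 were higher and 5 lower, with a median of −0.09. Without N16h replicate 23, ETR-tKO replicate 14 or ETR-tKO replicate 15, 2 were higher. *Spry4*, a Sprouty inhibitor of receptor tyrosine kinase signaling, had 8.06, 9.17 and 16.2 normalized counts in 2i, 4.71, 6.57 and 1.03 in 2i p5, 2144, 1955 and 2301 at N16h and 2601, 2594 and 2515 in ETR-tKO. It was 9.39 higher on the log2 scale in ETR-tKO than in 2i p5, and its change against N16h was not called (log2 fold change 0.27, standard error 0.12, edgeR adjusted p = 0.0783). *Dusp6*, an ERK phosphatase, had 308, 215 and 319 normalized counts in 2i, 156, 208 and 183 in 2i p5, 2381, 2243 and 2256 at N16h and 1835, 1828 and 1762 in ETR-tKO (log2 fold change −0.34, standard error 0.12, edgeR adjusted p = 0.017). This small difference from N16h lost its call without ETR-tKO replicate 15 (edgeR adjusted p = 0.0586) or RGd2 replicate 22 (edgeR adjusted p = 0.0541). *Dusp4*, a nuclear ERK phosphatase, exceeded N16h with 1419.96, 1281 and 1312 normalized counts at N16h and 3509, 2184 and 2356 in ETR-tKO (log2 fold change 1.01, standard error 0.15, edgeR adjusted p = 3.97e-07), and so did *Spry2* (log2 fold change 0.49). *Spry1* and *Dusp5*, of the same families, were lower, with log2 fold changes of −0.88 and −1.25. In ETR-tKO against 2i p5, 7 of the 14 genes were higher and 1 was lower, where 23.6% and 5.96% of all genes were. At N16h against 2i 7 were higher and 0 lower, where 5.37% and 23.2% of all genes were. With TMM the counts were 7 and 2 in ETR-tKO, and 10 and 0 at N16h.

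*Etv4*, the PEA3-subfamily paralog of *Etv5*, was higher in the mutant than in any other group compared here. It had 120.02, 116 and 105 normalized counts in 2i, 18.9, 30.2 and 26.7 in 2i p5, 2545, 2223 and 3017 at N16h and 5488, 5586 and 5396 in ETR-tKO (log2 fold change 1.08, standard error 0.12, edgeR adjusted p = 4.08e-10). *Etv1*, the other member of the subfamily, had 614, 502 and 602 normalized counts in 2i, 146, 191 and 148 in 2i p5, 1413, 1282 and 1441 at N16h and 1393, 1666 and 1718 in ETR-tKO, and was not called against N16h (log2 fold change 0.21, standard error 0.13, edgeR adjusted p = 0.197). In ETR-tKO *Etv4* was thus above N16h and *Etv1* was not called, while *Etv5* itself was reduced. The paper describes *Etv1* as negligibly expressed in embryonic stem cells. Of the 6 ETS genes tested, *Etv4* was the 1 higher and 0 were lower, with a median of 0.15; with TMM 1 was lower. Among 13 FGF ligands and receptors, of which 7 met the FPKM minimum, 2 were higher, 3 lower and 8 not called, with a median of 0.25. Of all genes tested, 19.6% were higher and 9.14% lower. The receptors *Fgfr1* and *Fgfr2* were higher, with log2 fold changes of 0.89 and 0.58, and the ligands *Fgf17*, *Fgf5* and *Fgf15* were lower, with log2 fold changes of −2.02, −1.30 and −0.59. The call of *Fgf15* was lost without ETR-tKO replicate 14, RGd2 replicate 22 or RGd2 replicate 23 (edgeR adjusted p = 0.101, 0.103 and 0.082). *Fgf4*, the ligand of naive and formative cells, was not called (log2 fold change −0.18, standard error 0.11, edgeR adjusted p = 0.217).

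*Egr1* and *Fos*, immediate early genes that growth factor signals switch on within minutes, were present in the mutant and near absent at N16h. *Egr1*, a zinc-finger factor and ERK target, had 1.79, 3.82 and 0 normalized counts in 2i, 2.36, 1.31 and 0 in 2i p5, 10.4, 13.6 and 7.16 at N16h and 676, 446 and 507 in ETR-tKO (log2 fold change 5.63, standard error 0.31, edgeR adjusted p = 5.67e-18). *Fos*, a subunit of AP-1, had 11.1, 6.79 and 15.3 normalized counts at N16h and 131, 125 and 96.3 in ETR-tKO (log2 fold change 3.46, standard error 0.38, edgeR adjusted p = 9.63e-10). Groups did not overlap in either gene, and the *Egr1* change from 2i p5 exceeded that from 2i to N16h by 7.01 (standard error 1.26, edgeR adjusted p = 2.42e-05). Of 13 such genes tested, 4 were higher, 1 was lower and 8 were not called, with a median of 1.07; the other 2 that were higher were *Junb* (1.12), another AP-1 subunit, and *Mycn* (1.07), a MYC-family factor. *Myc*, which drives growth and ribosome synthesis, had 623, 553 and 624 normalized counts at N16h and 110.5, 106 and 100.3 in ETR-tKO (log2 fold change −2.50, standard error 0.16, edgeR adjusted p = 2.31e-16), yet it was 0.89 above 2i p5 on the log2 scale. At N72h *Egr1* had 215, 270.1 and 198, so the mutant libraries exceeded the later RGd2 cells too.

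To ask how much of the early exit response the mutant shows, exit genes were taken as those called and at least 2-fold changed at N16h against 2i, and their call in ETR-tKO against 2i p5 was counted; these 2 contrasts share no library. Of 437 genes higher at N16h, 259 (59.3%) were also higher in ETR-tKO than in 2i p5, where 23.6% of all genes were; 10 (2.29%) were lower and 168 (38.4%) were not called. Of 957 genes lower at N16h, 320 (33.4%) were also lower in ETR-tKO, where 5.96% of all genes were; 195 (20.4%) were higher and 442 (46.2%) were not called. The upward response had a median log2 change of 1.60 at N16h and 1.37 in ETR-tKO, and the downward response −1.46 and −0.13, beside a median of 0.27 over all genes in ETR-tKO against 2i p5. All exit genes met the FPKM minimum at N16h or in 2i. In ETR-tKO against 2i p5, 11814 of the 18892 genes tested met it, and the others could not be called. The shares over all genes are therefore lower than among the 11814, and are not from a set matched to the exit genes. The shares of exit genes that went the same way also depend on scaling. With TMM, which shifted the median of all genes by 0.23 at N16h against 2i and by −0.25 in ETR-tKO against 2i p5, 333 of 605 upward genes (55%) and 326 of 640 downward genes (50.9%) went the same way in the mutant. The median downward change in ETR-tKO was then −0.47 against −1.52 at N16h, and the upward one 0.88 against 1.56. The balance of all calls moved as well: at N16h against 2i from 1014 higher and 4388 lower to 2648 (14%) and 2863 (15.2%), and in ETR-tKO against 2i p5 from 4459 higher and 1126 lower to 2721 (14.4%) and 3161 (16.7%).

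**Figure D2:**
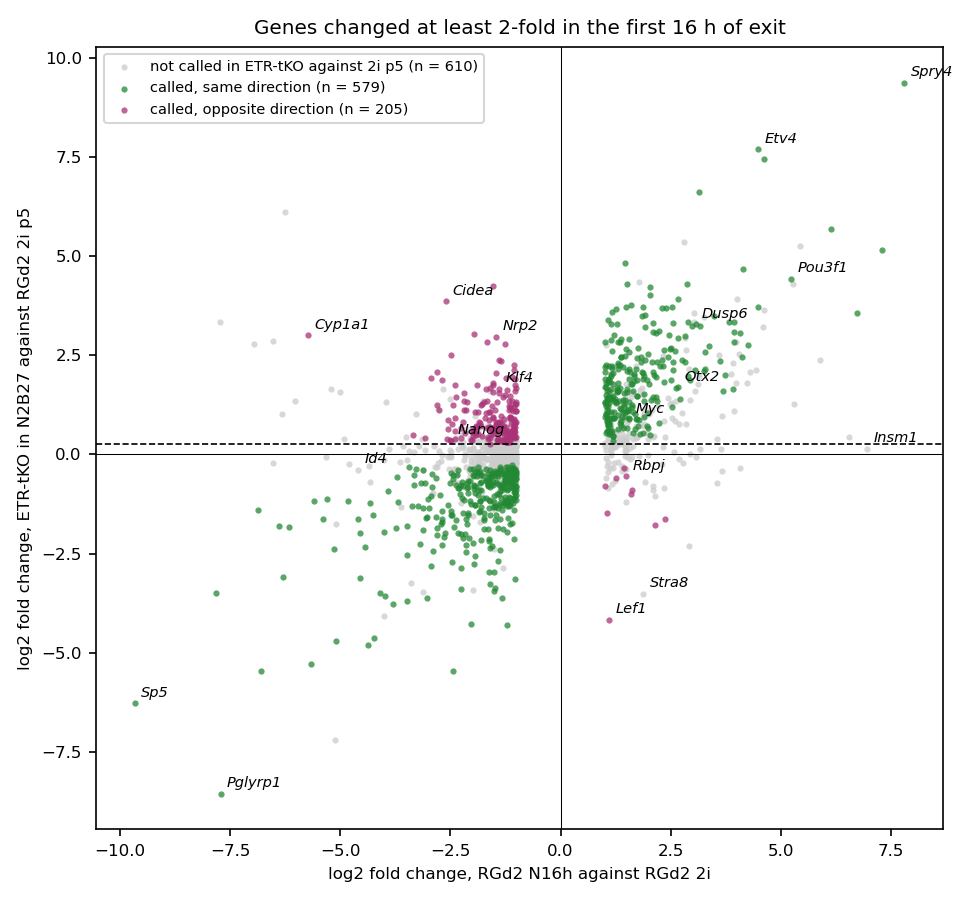
Log2 fold change of RGd2 N16h against RGd2 2i (x axis) and of ETR-tKO in N2B27 against RGd2 2i p5 (y axis) for the 437 and 957 exit genes, each point a gene, coloured by its call in ETR-tKO. *Spry4*, *Etv4*, *Dusp6* and *Pou3f1* rose in both, *Lef1* rose at N16h and was lower in ETR-tKO, and *Nanog* and *Klf4* fell at N16h and were not lower in ETR-tKO.

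The exit response itself was tested against the mutant's as a difference of the 2 changes, ETR-tKO minus 2i p5 less N16h minus 2i. Over all genes 5806 differences were positive (30.7%) and 533 negative (2.82%), with a median of 0.51; with TMM they were 2360 (12.5%) and 2293 (12.1%) and the median shifted by −0.48. Among the upward exit genes the difference was called negative for 146, a smaller rise in the mutant, and positive for 61, and with TMM for 288 and 38. Among the downward genes it was called positive for 771, a smaller fall, and negative for 20, and with TMM for 445 and 30. The exit genes were chosen by their change at N16h against 2i, which this difference subtracts, so the choice itself leans the counts towards a smaller rise or fall, and they are given as a description. The starting cultures also differed from each other, with 334 genes higher (1.77%) and 5709 lower (30.2%) in 2i p5 than in 2i, or 1674 (8.86%) and 1327 (7.02%) with TMM. The labels number the N16h and 2i libraries 22 to 24 and 31 to 33, and the 2i p5 and ETR-tKO libraries 1 to 3 and 13 to 15; what this numbering stands for is not stated, and its part in these differences was not tested.

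**Figure D3:**
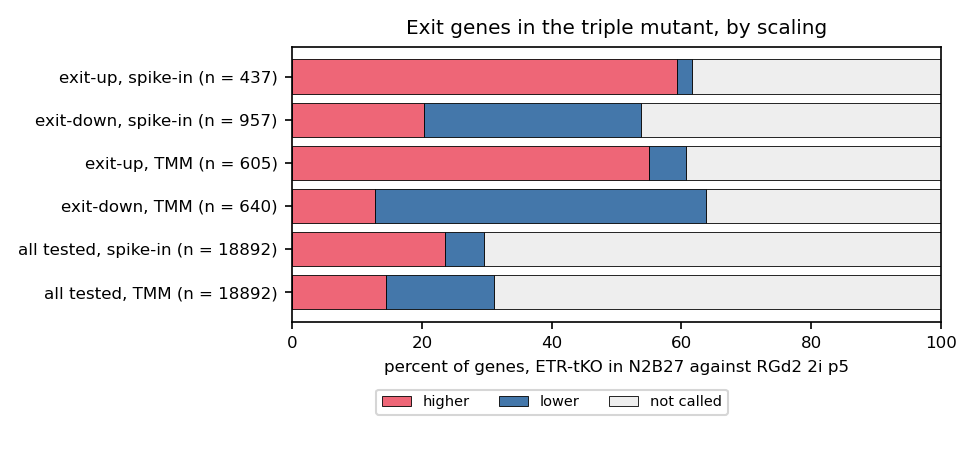
Percent of upward and downward exit genes called higher, lower or not called in ETR-tKO against RGd2 2i p5, with spike-in scaling (437 and 957 genes) and with TMM (605 and 640 genes), beside the same shares for all genes tested. The latter include genes under the FPKM minimum, which could not be called. The upward genes were mostly higher under both scalings, and the share of downward genes that were lower was 33.4% with the spike-ins and 50.9% with TMM.

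The upward exit genes with the largest matching change in ETR-tKO were *Spry4*, *Etv4*, *Atp1a4*, *Rhox7-ps2* and *Tnfsf11*. *Atp1a4*, a sodium pump subunit, had 11.6, 6.88 and 0 normalized counts in 2i, 4.71, 0 and 0 in 2i p5, 229, 268 and 106 at N16h and 146, 207 and 205 in ETR-tKO. *Tnfsf11*, which encodes the cytokine RANKL, had 1.79, 3.06 and 0 normalized counts in 2i, 2.36, 5.26 and 1.03 in 2i p5, 161, 158 and 176 at N16h and 194, 134 and 123 in ETR-tKO. In both genes the N16h and ETR-tKO libraries overlapped, and all were above those in inhibitors. *Rhox7-ps2*, a pseudogene of the reproductive homeobox cluster, was low throughout, with 16.3, 18.3 and 6.14 normalized counts at N16h and 16.4, 6.45 and 9.55 in ETR-tKO; related copies in the cluster can share reads, so its value is uncertain.

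The upward exit genes whose rise was most reduced in the mutant were *Insm1*, *2610528J11Rik*, *Stra8*, *Lef1* and *Platr5*. *Insm1*, a neuroendocrine zinc-finger repressor, had 0, 0.76 and 4.04 normalized counts in 2i, 0, 6.57 and 1.03 in 2i p5, 139.8, 93.5 and 93.1 at N16h and 4.25, 2.15 and 2.39 in ETR-tKO (difference of the changes −6.81, standard error 1.34, edgeR adjusted p = 8.64e-05). *Stra8*, the retinoic acid responsive gene of meiotic entry, had 236, 184 and 271 normalized counts in 2i, 9.43, 6.57 and 13.4 in 2i p5, 744, 773 and 970.1 at N16h and 0, 1.07 and 1.59 in ETR-tKO (difference −5.39, standard error 0.76, edgeR adjusted p = 3.54e-07). *Insm1* in the mutant was thus near its level in 2i p5 (0.15 on the log2 scale, not called), and *Stra8*, near 0 in the mutant, was already low in 2i p5, whose log2 fold change against 2i was −4.45. *2610528J11Rik* and *Platr5*, a gene without a known role and a noncoding RNA of pluripotent cells, had 78.4, 82.0 and 77.8 and 39.9, 55.4 and 43.0 normalized counts at N16h, against 14, 17.2 and 9.55 and 2.43, 0 and 1.59 in ETR-tKO. In RGd2 at N72h *Stra8* (0, 1.56 and 1.83) and *Platr5* (2.07, 1.56 and 2.44) were also near 0. *Insm1* then had 96.4, 145 and 121, *2610528J11Rik* 199, 214 and 258, and *Lef1* 1122, 1160 and 1175. Further upward exit genes that were not higher in ETR-tKO than in 2i p5 were *Dll1*, *Gadd45g* and *Rbpj* itself.

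The downward exit genes with the largest matching change in ETR-tKO were *Pglyrp1*, *Sp5*, *Lipc*, *Cdx2* and *Trpm1*. *Sp5*, a direct target of β-catenin, had 470.2, 336 and 654 normalized counts in 2i, 386, 376 and 399 in 2i p5, 0.74, 0.52 and 0 at N16h and 9.10, 4.30 and 0 in ETR-tKO. *Cdx2*, a caudal homeobox gene, had 399, 262 and 230.1 normalized counts in 2i, 96.6, 122 and 164 in 2i p5, 1.48, 1.57 and 6.14 at N16h and 3.03, 2.15 and 3.18 in ETR-tKO. Both genes were near 0 in all 6 libraries without inhibitors. *Pglyrp1*, a secreted peptidoglycan-binding protein, fell from means of 849 in 2i and 529 in 2i p5 to 0.74, 6.27 and 4.09 at N16h and 2.43, 0 and 0.80 in ETR-tKO. *Lipc*, hepatic lipase, fell further in the mutant than at N16h, to 4.86, 0 and 1.59 against 41.4, 44.9 and 29.7, and *Trpm1*, a cation channel gene, had 7.28, 18.3 and 7.16 in ETR-tKO and 17.7, 17.8 and 5.1 at N16h.

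The downward exit genes with the largest positive difference were *Gm10801*, *Gm10722*, *Gm10800*, *Gm11168* and *Cyp1a1*, but the first 4 rest on a single library. *Gm10800* had 19.7, 21.4 and 16950.2 normalized counts in 2i replicates 31, 32 and 33, and *Gm11168* had 26.9, 22.2 and 9775; *Gm10801* and *Gm10722* had 565.3 and 96.9 in replicate 33 and less than 1 in the other two. Without replicate 33, the library with the fewest counts, the 5 genes would be *Cyp1a1*, *Spic*, *Cidea*, *Mir467e* and *Gm13128*, named here after their values were seen. *Cyp1a1*, a cytochrome P450 induced by the aryl hydrocarbon receptor, had 142, 94.7 and 113 normalized counts in 2i, 42.4, 68.4 and 50.4 in 2i p5, 2.96, 2.61 and 0 at N16h and 569, 407 and 347 in ETR-tKO (log2 fold change 7.64, standard error 0.36, edgeR adjusted p = 2.49e-20). *Spic*, an ETS-family factor gene, had 481.0, 430.1 and 254.4 normalized counts in 2i, 289.9, 340.5 and 246.7 in 2i p5, 5.18, 4.18 and 3.07 at N16h and 288.9, 238.6 and 222.9 in ETR-tKO. Its loss at N16h was thus not seen in the mutant, where every library was above 200.

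Most genes listed under Notch and RBPJ control were higher in the mutant. Of 10 Notch/RBPJ genes tested, 8 were higher in ETR-tKO, 1 was lower and 1 was not called, with a median log2 fold change of 4.69. *Prickle1*, *Cidea*, *Nrp2* and *Trh* entered this list because of their change in mutants of this series, so their direction is not independent evidence; of the other 6 genes, 4 were higher and 1 lower, with a median of 2.58. *Hey1*, a bHLH repressor and direct Notch target, had 62.7, 52.7 and 52.5 normalized counts in 2i, 163, 177 and 232 in 2i p5, 8.87, 6.79 and 9.21 at N16h and 311, 437 and 481 in ETR-tKO (log2 fold change 5.64, standard error 0.25, edgeR adjusted p = 4.39e-21). *Nrarp*, a feedback regulator of Notch, had 51.1, 42.0 and 121 normalized counts in 2i, 47.1, 63.1 and 62.7 in 2i p5, 12.6, 14.1 and 19.4 at N16h and 498, 455 and 511 in ETR-tKO (log2 fold change 5.02, standard error 0.23, edgeR adjusted p = 2.07e-20). *Hes1*, the bHLH repressor most used as a Notch readout, had 482, 359.8 and 646 normalized counts in 2i, 377, 452 and 362 in 2i p5, 78.4, 70.0 and 94.1 at N16h and 452, 577 and 534 in ETR-tKO (log2 fold change 2.70, standard error 0.16, edgeR adjusted p = 2.49e-17). *Hey1* and *Nrarp* in the mutant exceeded every library of the 3 RGd2 cultures listed, whereas *Hes1* was near its level in 2i. *Prickle1*, a planar polarity gene, had 43.6, 47.5 and 43.0 normalized counts at N16h and 4929, 3757 and 3946 in ETR-tKO (log2 fold change 6.54, standard error 0.20, edgeR adjusted p = 1.53e-25). *Gadd45g*, a stress-response gene, was the member that was lower, with 214, 176 and 96.9 normalized counts in 2i, 35.3, 40.8 and 48.3 in 2i p5, 869.7, 833 and 595 at N16h and 23.7, 4.30 and 4.78 in ETR-tKO (log2 fold change −5.95, standard error 0.32, edgeR adjusted p = 3.3e-18). At N16h against 2i 6 of the 10 were lower and 1 was higher, where 23.2% and 5.37% of all genes were. In ETR-tKO against 2i p5 8 were higher and 1 lower, where 23.6% and 5.96% of all genes were.

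Of 9 Notch receptors and ligands, 5 were higher in ETR-tKO and 1 was lower, with a median of 1.31. *Notch3*, a receptor, had 899, 791 and 612 normalized counts at N16h and 3993, 4468 and 4221 in ETR-tKO (log2 fold change 2.46, standard error 0.14, edgeR adjusted p = 1.39e-17). *Jag1*, a ligand, had 268, 225 and 185 normalized counts at N16h and 1373, 1147 and 1165 in ETR-tKO (log2 fold change 2.44, standard error 0.16, edgeR adjusted p = 3.89e-16). *Dll1*, a Delta-type ligand, had 107, 97.0 and 96.9 normalized counts in 2i, 84.8, 60.5 and 55.5 in 2i p5, 929.6, 848 and 542 at N16h and 66.2, 48.4 and 78.0 in ETR-tKO (log2 fold change −3.58, standard error 0.21, edgeR adjusted p = 3.95e-17). Both Jagged ligands and 3 of the 4 receptors were therefore higher and *Dll1* lower than at N16h, and the rise of *Dll1* during exit was not seen in the mutant. The other genes that were higher were *Notch1* (1.38), *Jag2* (1.31) and *Notch4* (0.61).

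Of 4 Id genes, whose products block bHLH factors, 3 were higher and 0 lower, with a median of 2.24. *Id3* had 301, 262 and 275 normalized counts in 2i, 165, 179 and 104 in 2i p5, 314, 366 and 265 at N16h and 2622, 2419 and 2219 in ETR-tKO (log2 fold change 2.93, standard error 0.15, edgeR adjusted p = 1.03e-18). *Id4* had 285, 243 and 335 normalized counts in 2i, 445, 532 and 439 in 2i p5, 17.0, 9.92 and 7.16 at N16h and 284, 407 and 399 in ETR-tKO (log2 fold change 4.96, standard error 0.22, edgeR adjusted p = 1.08e-20). *Id3* was thus above all RGd2 cultures shown, whereas *Id4* lay within the range of the 2i and 2i p5 libraries, which RGd2 had left by 16 h. *Id1* had 74.0, 71.0 and 119.7 normalized counts at N16h and 339, 188 and 229 in ETR-tKO (log2 fold change 1.55, standard error 0.26, edgeR adjusted p = 5.03e-06), and *Id2* was not called (log2 fold change 0.31, standard error 0.27, edgeR adjusted p = 0.394).

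Most Wnt/β-catenin targets were lower in the mutant than in inhibitors, as they were at N16h. In ETR-tKO against 2i p5, 12 of 18 genes tested were lower and 0 higher, where 5.96% and 23.6% of all genes were. At N16h against 2i 11 were lower and 1 higher, where 23.2% and 5.37% of all genes were. Against N16h, 2 were higher in ETR-tKO, 4 lower and 12 not called, where 19.6% of all genes were higher and 9.14% lower. The list median was 0.32, or −0.08 in a fit of only the libraries compared, where 15 were tested. The FPKM minimum of 1 was met by 8 of the 18, and without it 8 were higher and 4 lower; *Wnt3*, a Wnt ligand, had the largest change of those added, at 4.20. *Axin2*, a feedback inhibitor of β-catenin, had 3557, 2671 and 3048 normalized counts in 2i, 2201, 2344 and 2345 in 2i p5, 493, 421 and 422 at N16h and 505, 729.7 and 682 in ETR-tKO (log2 fold change 0.52, standard error 0.14, edgeR adjusted p = 0.00263). *Fzd10*, a Wnt receptor, was also higher than at N16h (2.36). *Sp8*, a zinc-finger factor related to *Sp5*, had 212, 209.96 and 141 normalized counts at N16h and 9.71, 9.67 and 6.37 in ETR-tKO (log2 fold change −4.44, standard error 0.28, edgeR adjusted p = 2.12e-16). *Lef1* was lower as described, and *Notum* and *Nkx1-2*, a secreted Wnt inhibitor and a homeobox gene, were lower, with log2 fold changes of −1.25 and −0.54. *Sp5* had 2 counts over the N16h libraries and 19 over the mutant ones, a ratio of 10.5 with a 95% counting interval of 2.54 to 93.1, and was under the FPKM minimum in both groups.

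Among genes of DNA methylation, 5 of 9 were lower in ETR-tKO than at N16h, 1 was higher and 3 were not called, with a median of −0.39; with TMM 6 were lower. *Dnmt3a*, a de novo methyltransferase, had 5916, 4422 and 3658 normalized counts in 2i, 2418, 3003 and 2394 in 2i p5, 14422, 14770.4 and 14289.9 at N16h and 6584, 5723 and 5641 in ETR-tKO (log2 fold change −1.28, standard error 0.12, edgeR adjusted p = 3.06e-11). *Dnmt3b*, the second de novo enzyme, had 5788, 4538 and 4781 normalized counts in 2i, 2420.2, 2548 and 2321 in 2i p5, 13899, 13012 and 9711 at N16h and 8915, 6491 and 6435 in ETR-tKO (log2 fold change −0.75, standard error 0.12, edgeR adjusted p = 4.12e-06). Both were above 2i p5 and below N16h in every mutant library, but every 2i p5 library was also below every 2i library. For *Dnmt3a*, the change from 2i p5 to ETR-tKO less that from 2i to N16h was −0.43 (edgeR adjusted p = 0.0441), or −0.90 with TMM. *Dnmt3l*, their catalytically inactive cofactor, was 2.32 above 2i p5 and not called against N16h (log2 fold change 0.16, standard error 0.14, edgeR adjusted p = 0.396). *Uhrf1*, *Tet1* and *Apobec3* were the others that were lower, with log2 fold changes of −0.47, −0.64 and −0.39 (not called without ETR-tKO replicate 13, edgeR adjusted p = 0.11), and *Tet3*, a 5-methylcytosine oxidase, was higher (log2 fold change 1.04). At N16h against 2i 4 of the 9 were higher and 0 lower, where 5.37% and 23.2% of all genes were. In ETR-tKO against 2i p5 6 were higher and 0 lower, where 23.6% and 5.96% of all genes were. With TMM the counts were 5 and 0 at N16h, and 6 and 1 in ETR-tKO. The difference of these 2 changes was called positive for 3 genes and negative for 2, where 30.7% and 2.82% of all genes were. With TMM it was positive for 2 and negative for 4, where 12.5% and 12.1% were.

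Nodal, activin and BMP genes and the LIF pathway were on balance above N16h. Of 14 genes of Nodal, activin and BMP signaling, 8 were higher and 1 lower, with a median of 0.59. *Lefty2*, a Nodal inhibitor and target, had 8081, 6700.4 and 3715 normalized counts in 2i, 15431, 15873 and 15307 in 2i p5, 363, 361 and 358 at N16h and 1346, 1413 and 1407 in ETR-tKO (log2 fold change 1.94, standard error 0.18, edgeR adjusted p = 1.16e-11). Its level was therefore between those in 2i p5 and at N16h. *Smad7*, an inhibitory SMAD, was higher (log2 fold change 1.21), and *Skil*, a SMAD corepressor, was lower, with a log2 fold change of −0.88. Of 10 genes of LIF/JAK/STAT3 signaling, 6 were higher and 1 lower, with a median of 0.79; with TMM 2 were lower. *Jak3* is described above; *Il6st*, which encodes the shared receptor subunit GP130, had a log2 fold change of 1.36, *Stat3*, the effector of the pathway, of 0.87, and *Pim1*, a kinase gene downstream of STAT3, of −1.03.

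Genes of the matrix and of cell attachment were more often higher than lower in the mutant, as were all genes tested (19.6% higher and 9.14% lower). Of 18 basement membrane genes, 9 were higher and 2 lower, with a median of 0.60, and of 22 integrin and focal adhesion genes 10 were higher and 4 lower, with a median of 0.41. With TMM the counts were 9 and 2, and 10 and 5, beside 17.9% higher and 17.6% lower over all genes. *Col4a1*, a chain of type IV collagen, had 354, 335 and 1358 normalized counts at N16h and 4095, 5264 and 5053 in ETR-tKO (log2 fold change 2.84, standard error 0.56, edgeR adjusted p = 7.46e-05). *Col4a2*, its partner chain, had 154, 141 and 540.3 normalized counts at N16h and 1309, 1983 and 1733 in ETR-tKO (log2 fold change 2.63, standard error 0.55, edgeR adjusted p = 0.000146). For both chains RGd2 replicate 24 stood apart from replicates 22 and 23, and without it the log2 fold changes were 3.81 and 3.51; 7 basement membrane genes were then higher and 2 lower. *Itga1*, the α1 integrin that binds collagen, had 54.6, 57.3 and 60.6 normalized counts in 2i, 61.3, 59.2 and 86.3 in 2i p5, 159.7, 151 and 157 at N16h and 2013, 1987 and 2073 in ETR-tKO (log2 fold change 3.70, standard error 0.16, edgeR adjusted p = 2.4e-21). The mutant libraries were more than 10-fold above every RGd2 library shown. *Itga8*, another α integrin, was higher, with a log2 fold change of 2.73, whereas *Itga3* and *Itgb1*, subunits of laminin receptors, were lower, with log2 fold changes of −1.34 and −0.54. *Lama3* and *Dag1*, a laminin chain and dystroglycan, were lower, with log2 fold changes of −2.64 and −0.66.

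Of 14 genes of the actin cytoskeleton and YAP response, 5 were higher and 1 lower, with a median of 0.25. *Gsn* and *Tagln2*, which encode the actin-severing gelsolin and a transgelin, were higher, with log2 fold changes of 1.93 and 1.46, and *Ccn1*, a YAP-responsive matricellular gene, was lower, with a log2 fold change of −2.06. Of 10 keratin and epithelial genes, 6 were higher and 1 lower, with a median of 1.60. *Tfap2c*, an AP-2 factor of naive cells and trophoblast, had 859, 642 and 937 normalized counts in 2i, 1244, 1287 and 1721 in 2i p5, 96.9, 91.4 and 97.2 at N16h and 2440.01, 1656 and 1627 in ETR-tKO (log2 fold change 4.33, standard error 0.17, edgeR adjusted p = 1.65e-22). *Elf3*, an epithelial ETS factor, was higher (log2 fold change 2.27), and the keratins of simple epithelia *Krt8* and *Krt18* had 1.85 and 1.12. *Epcam*, an epithelial adhesion molecule, was lower, with a log2 fold change of −0.72. Of 5 cadherins 0 were higher and 2 lower: *Cdh3* (−0.89), or −1.68 without ETR-tKO replicate 13, whose library lay in the N16h range, and not called in a fit of only the libraries compared (edgeR adjusted p = 0.0767), and *Cdh1* (−0.30), whose call was lost in 5 of 6 fits that left out 1 library, with edgeR adjusted p-values of 0.0585 to 0.14.

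Genes induced by p53 were higher in the mutant, and several cell cycle genes were lower. Of 11 p53 targets, 9 were higher and 1 was lower, with a median of 1.17. *Perp*, a desmosomal protein gene, had 49.3, 55.8 and 72.7 normalized counts in 2i, 68.3, 84.1 and 86.3 in 2i p5, 56.9, 46.0 and 70.6 at N16h and 1685, 929.6 and 892 in ETR-tKO (log2 fold change 4.37, standard error 0.20, edgeR adjusted p = 1.3e-20). *Phlda3*, an inhibitor of AKT, had 1564, 1173 and 1304 normalized counts in 2i, 1152, 1275 and 1105 in 2i p5, 576, 522 and 465 at N16h and 1951, 2209 and 2027 in ETR-tKO (log2 fold change 1.98, standard error 0.12, edgeR adjusted p = 6.27e-17). *Perp* was above every RGd2 library listed, and *Phlda3* fell at N16h but not in the mutant. *Mdm2*, which encodes the ligase that degrades p53, was higher, with a log2 fold change of 1.17, *Cdkn1a*, which encodes p21, with 0.59, and *Sesn1*, a stress-response gene, was lower, with a log2 fold change of −0.58. Of 16 cell cycle genes, 4 were higher and 7 lower, with a median of −0.37; with TMM 9 were lower. *Ccnd2*, cyclin D2, had 2036, 2257 and 2102 normalized counts at N16h and 356, 61.3 and 93.1 in ETR-tKO (log2 fold change −3.59, standard error 0.32, edgeR adjusted p = 2.91e-12). *Cdkn1c*, an imprinted inhibitor, had 1299, 1077 and 109 normalized counts at N16h and 118, 43.0 and 37.4 in ETR-tKO (log2 fold change −3.60, standard error 0.67, edgeR adjusted p = 2.91e-05); RGd2 replicate 24 was in the mutant range, and without it the log2 fold change was −4.10. The inhibitors *Cdkn2b* and *Cdkn2a* were higher, with log2 fold changes of 1.42 and 0.66.

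Metabolic genes moved by smaller amounts, and their counts changed with scaling. Of 20 sterol synthesis genes, 0 were higher and 14 lower in ETR-tKO, with a median of −0.39. With TMM 18 were lower, without ETR-tKO replicate 13 9 were, and with a fold of at least 1.5 required 3 were. *Fdps* and *Fdft1*, which make farnesyl diphosphate and squalene, were lower, with log2 fold changes of −0.80 and −0.67. Against 2i, 9 of the 20 were higher at N16h and 0 lower, where 5.37% and 23.2% of all genes were. Against 2i p5 2 were higher and 4 lower in ETR-tKO, where 23.6% and 5.96% of all genes were. With TMM the latter counts were 0 and 13, where 14.4% and 16.7% of all genes were. Of 18 glycolytic genes, 3 were higher and 5 lower, with a median of −0.16; with TMM 11 were lower. *Ldha*, lactate dehydrogenase A, had 22958, 18003 and 13042 normalized counts in 2i, 17462, 18390.3 and 16228 in 2i p5, 19659.8, 19594 and 18869 at N16h and 6809.6, 5886 and 5821 in ETR-tKO (log2 fold change −1.65, standard error 0.13, edgeR adjusted p = 1.01e-13). No RGd2 library of these 3 cultures was as low as the mutant. *Hk2*, a hexokinase, was lower (log2 fold change −0.76), and *Slc2a3* and *Hk1*, a glucose transporter and a hexokinase, were higher, with log2 fold changes of 1.22 and 1.17. Of 24 lysosomal genes, 13 were higher and 1 lower, with a median of 0.40; with TMM 3 were lower. *Psap*, which encodes prosaposin, was higher (log2 fold change 0.93), and *Acp5*, an acid phosphatase, was lower, with a log2 fold change of −1.76. Lysosomal genes were lower in 21 of 24 at N16h against 2i and in 14 of 24 in ETR-tKO against 2i p5. In each contrast 1 was higher. Over all genes, 23.2% and 5.96% were lower in these contrasts, and 5.37% and 23.6% higher. With TMM 20 of the 24 were lower in both, and 1 and 0 were higher. The lower shares over all genes were then 15.2% and 16.7%. The gap between 21 and 14 was therefore not kept with TMM. Of 13 mitochondrially encoded genes, 9 were higher and 0 lower, with a median of 0.49, led by *mt-Nd6* (1.67) and *mt-Nd5* (1.01), subunits of complex I. Of 83 cytosolic ribosomal protein genes, 5 were higher and 3 lower, with a median of 0.03; with TMM 4 were higher and 11 lower, with a median of −0.09, and without RGd2 replicate 22 or 24 2 were higher, *Rps10* then not among them (edgeR adjusted p = 0.0524 and 0.0652). The extremes were *Rps27l* and *Rps10* (0.48 and 0.39) and *Rpl39l* and *Rpl13a* (−1.38 and −0.69), and copies of such genes can share reads.

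**Figure D4:**
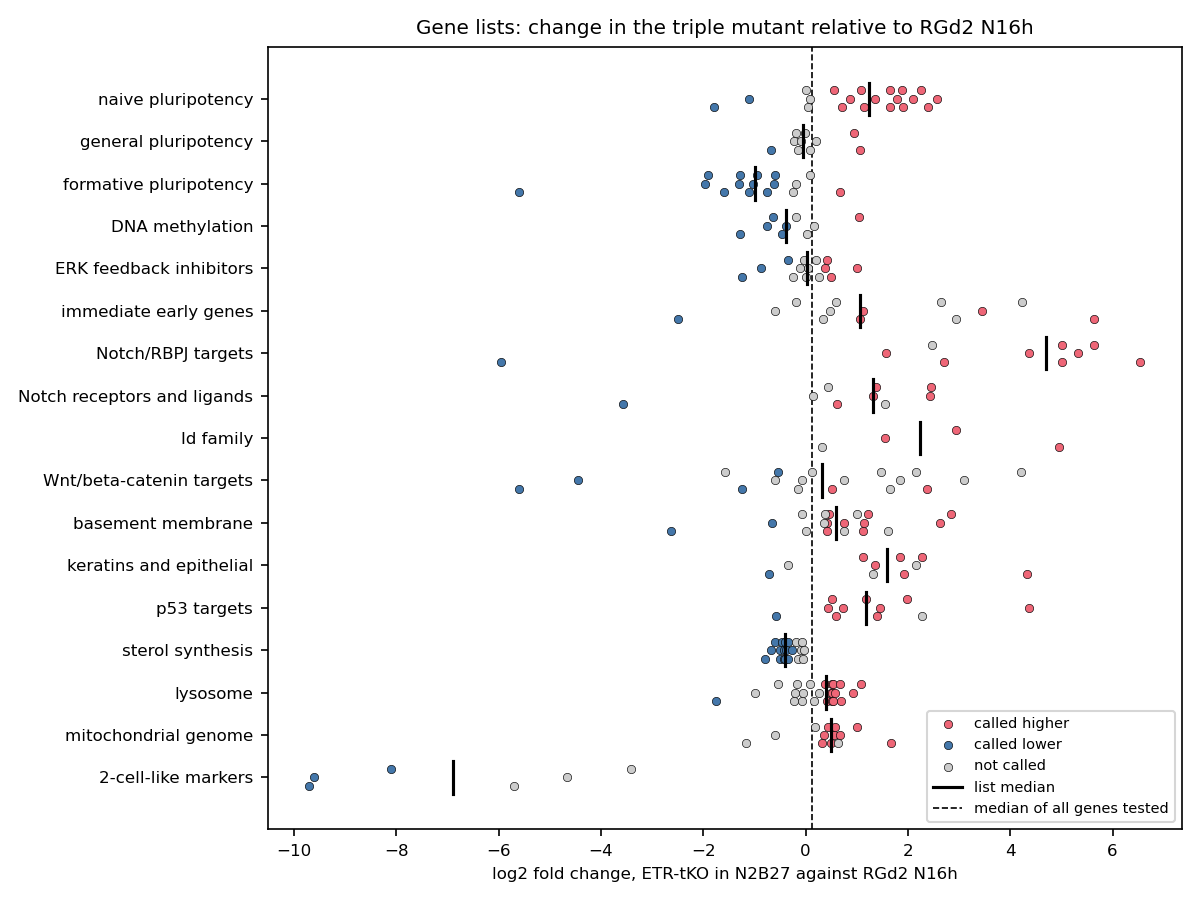
Log2 fold change of ETR-tKO in N2B27 against RGd2 N16h for each tested gene of 17 lists (points, coloured by call), with the list median (bar) and the median of all genes tested (dashed line, 0.12). Naive genes (median 1.25) and Notch/RBPJ genes (4.69, or 2.58 without the 4 genes chosen for their change in these mutants) lie to the right of the dashed line, formative (−0.99) and sterol synthesis (−0.39) genes to the left.

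Most markers of lineages that the cultures could hold were under the FPKM minimum, below which no gene was called. This held for 8 of 8 primitive endoderm and 5 of 5 trophoblast markers tested. Without the minimum, the primitive endoderm factor *Sox7* (3.13) and the endocytic coreceptor gene *Amn* (2.28) would be called higher and *Gata6* (−3.26) lower, and 0 trophoblast markers in either direction. Of 9 mesendoderm markers 2 met the minimum and both were higher, *Cxcr4*, a chemokine receptor gene, with 2.96, 7.31 and 9.21 normalized counts at N16h and 69.8, 58.0 and 50.2 in ETR-tKO, and *Eomes*, a T-box factor, with 174, 126 and 164 and 599.7, 1266 and 1083. *Eomes* was also detected in RGd2 2i, at 303, 277 and 581 normalized counts, and in 2i p5, at 196, 293 and 269. Without the minimum 5 of the 9 would be higher and 0 lower, *Gsc*, *Evx1* and *Mixl1* being added, at means of 10.3, 5.06 and 13.6 normalized counts in ETR-tKO and of 0.348, 0.348 and 4.76 at N16h. Of 8 neural markers 3 were higher and 1 lower: *Nes*, an intermediate filament gene (2.81), *Tubb3*, a neuronal tubulin gene (2.07), and *Pax6* (0.77, not called without RGd2 replicate 24, edgeR adjusted p = 0.0517) were higher, and *Sox1*, an early neural factor, was lower (−1.30). *Nes* had 226, 256 and 178 normalized counts at N16h, 1505, 1615 and 1544 in ETR-tKO and 6265, 7986 and 6719 at N72h.

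Germline and 2-cell-like genes included the largest decreases. Of 10 germ cell markers 3 were higher and 4 lower; with TMM 2 were higher. *Nanos3* and *Prdm1*, regulators of primordial germ cells, were higher, with log2 fold changes of 2.91 and 1.99, and *Mael* and *Stk31*, genes of the piRNA pathway and of spermatogenic cells, were lower, with log2 fold changes of −2.33 and −2.13. Of 6 markers of the 2-cell-like state, a rare and transient state of these cultures, 3 were lower and 0 higher. *Zscan4d* had 484, 403 and 34.8 normalized counts at N16h, and 1 count over the 3 mutant libraries against 1461 over the RGd2 ones, a ratio of 1320 with a 95% counting interval of 237 to 52200. *Zscan4c* had 413, 396 and 58.3 normalized counts at N16h and 0, 0 and 0.80 in ETR-tKO. The Zscan4 genes are near-identical copies that can share reads, so their separate values are uncertain, and RGd2 replicate 24 was lower in them than replicates 22 and 23; without it the log2 fold change of *Zscan4c* was −10.08.

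Of 20 imprinted genes tested, 7 were higher and 4 lower, where 19.6% and 9.14% of all genes were. Without RGd2 replicate 22, RGd2 replicate 23, ETR-tKO replicate 14 or ETR-tKO replicate 15, 2 were lower. *Plagl1*, a zinc-finger regulator of growth, had 253, 207 and 227 normalized counts at N16h and 392, 2334 and 2825 in ETR-tKO (log2 fold change 3.01, standard error 0.39, edgeR adjusted p = 3.03e-08); replicate 13 was far below the other two mutant lines, and without it the log2 fold change was 3.50. *Sgce*, sarcoglycan ε, was higher, with a log2 fold change of 2.54, and *Peg10*, a retrotransposon-derived gene beside it, with 2.00. *Grb10*, a growth inhibitor, was lower (log2 fold change −1.73), with 2922, 2746 and 530.1 normalized counts at N16h and 1194, 282 and 379 in ETR-tKO, groups that overlapped; without RGd2 replicate 24 its log2 fold change was −2.17. Its call was lost in 4 of the 6 fits that left out 1 library (edgeR adjusted p = 0.0721 to 0.0985) and with the DESeq2 Wald test (adjusted p = 0.0543). Of 4 Y-linked genes 0 were called: *Ddx3y*, an RNA helicase gene, had 1981, 2011 and 6.14 normalized counts at N16h and 2209, 2149 and 1957 in ETR-tKO. The clonal RGd2 replicate 24 was thus near 0 for a gene that the other 5 libraries expressed.

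Over all genes, the 5 called genes furthest above N16h with groups that did not overlap were *Gm34653*, *Ly6g6e*, *Cyp1a1*, *1700108F19Rik* and *Mir669a-2*. *Gm34653* had 0 counts over the N16h libraries and 20.6, 53.7 and 40.6 normalized counts in ETR-tKO, at least 49.8-fold higher when N16h is set to a floor of 3 counts over the group. *Ly6g6e*, a gene of the Ly6 surface protein family, had 1 count at N16h and 370 in ETR-tKO, a ratio of 410 with a 95% counting interval of 73.1 to 16200. *Mir669a-2*, a microRNA gene with near-identical copies that can share reads, was at least 21.4-fold higher against the same floor. *1700108F19Rik* had 3.70, 0.52 and 4.09 normalized counts at N16h and 554, 391 and 458 in ETR-tKO. The 5 furthest below N16h were *Stra8*, *Zscan4-ps1*, *Zscan4e*, *Zscan4d* and *Zscan4c*. *Stra8* had 3434 counts at N16h and 3 in ETR-tKO, a ratio of 1030 with a 95% counting interval of 354 to 5020. *Zscan4-ps1* and *Zscan4e* were at 0 in ETR-tKO, at least 144-fold and at least 142-fold lower against a floor of 3 counts over the mutant group. These intervals and floors cover counting error only.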

How the data were processed

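Total RNA depleted of ribosomal RNA, with ERCC spike-ins added, was sequenced as strand-specific paired-end libraries. After adapter trimming (Trim Galore) and alignment by TopHat2 against GRCm38/mm10 with spike-in sequences added, the authors deposited raw counts per gene (Gencode M14) from unique primary alignments with featureCounts, without normalization. The labels give the molecule as polyA RNA, the methods describe total RNA, and the latter was followed. Groups came from the sample labels, which list 3 RGd2 N16h libraries where the paper's methods name that group as having 2; the labels were followed. Clonal lines are separate cultures, but no label says whether replicates of a line are, so the spread may in part be technical.

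From these deposited counts, size factors were computed as the median of ratios over the 52 of 92 spike-ins above 0 in every library, and the 18892 of 51826 genes passing filterByExpr were fitted with edgeR 4.0.16 (R 4.3.3) in 1 model of 32 libraries with a term per group. IDs without a symbol numbered 193 and held 0.02589% of counts. FPKM was computed from the counts and gene lengths and is used for the minimum of 1. Called means an adjusted p under 0.05 and that minimum. Exit genes needed a fold of at least 2 at N16h against 2i. Difference-of-changes contrasts came from the same model. Libraries within a group differed by a chi-square of 5.18 to 29.6 per gene, where counting alone gives about 1, so no library was counted as a repeat. With 0 counts, or 1 to 3, over a group, a bound against 3 counts or an exact 95% interval of the ratio is given.

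The members of the comparison, the gene lists and the tests were chosen with earlier results of these data known. Within a list, the pair of called genes changed most in each direction were named, at least; over all genes the 5 per direction with groups that did not overlap and at least 10 counts in every library of the higher group; and among exit genes the 5 with the largest matching change and the 5 with the largest difference against the exit direction. One gene that this rule would name is not reported here. Genes named for a count without the FPKM minimum, and the count of Notch/RBPJ genes without the 4 chosen in this series, were added after values were seen. gRNA sequences were located on Gencode M21 transcripts (GRCm38). Alternatives were TMM, median-of-ratios factors on genes, total spike-in count, DESeq2 1.42.0, only the libraries compared, no filter, no FPKM minimum, a fold of 1.5, the RGd2 line as a term, and leaving out each library. On simulated data for ETR-tKO against N16h (17874 genes tested), 192 of 200 genes changed 2-fold were found with 10 other calls, and 0 without any change. When all genes were shifted by 0.3 on the log2 scale (17901 genes tested), 3972 others were called with spike-ins and 11 with TMM. The simulated counts took the spike-in size factors as true and were called without the FPKM minimum. Error in the spike-in scaling was therefore not tested.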

Additional observations from a re-analysis of the deposited data

Results flagged for a closer look

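The change of ETR-tKO from 2i p5 and the change of RGd2 from 2i to N16h differed by a direct test of the difference for 5806 genes in the positive direction and 533 in the negative direction (edgeR's quasi-likelihood test, Benjamini-Hochberg adjusted). The median over all genes was 0.51, and with TMM the counts were 2360 and 2293. Among named genes, the difference was negative for *Insm1* (−6.81), *2610528J11Rik* (−6.10), *Stra8* (−5.39), *Lef1* (−5.27), *Platr5* (−5.21), *Zscan4c* (−8.21), *Otx2* (−0.96) and *Dnmt3a* (−0.43). It was positive for *Cyp1a1* (8.74), *Egr1* (7.01), *Nanog* (2.83) and *Spry4* (1.58). With TMM the call of *Spry4* was lost (1.07, edgeR adjusted p = 0.172) and the other 11 were kept. The differences of *Gm10801* (12.37), *Gm10722* (11.07), *Gm10800* (9.76) and *Gm11168* (9.39) came from 1 library, RGd2 2i replicate 33, and that of *Gm10722* was not called with TMM (edgeR adjusted p = 0.0613). Genes picked for their change at N16h, which the difference subtracts, lean towards a smaller change by that choice. Each group has 3 libraries, so single libraries far from the rest of their group were not tested for.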

How the results depend on the processing

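Of 240 listed genes called in ETR-tKO against N16h, 0 changed sign in the alternatives tried. The balance of higher and lower calls turned with TMM in ETR-tKO against 2i p5 and in 2i p5 against 2i. With median-of-ratios factors on genes it turned there too, and in ETR-tKO against N16h, to 3320 higher and 3395 lower. These factors also turned it at N16h against 2i, to 2781 higher and 2745 lower. With TMM and with median-of-ratios factors on genes, respectively, the counts became 3332 and 3395 lower in ETR-tKO against N16h; 2648 and 2781 higher and 2863 and 2745 lower at N16h against 2i; 2721 and 2916 higher and 3161 and 2980 lower in ETR-tKO against 2i p5; 2360 and 2386 positive and 2293 and 2269 negative differences of the changes; and 1674 and 1564 higher and 1327 and 1465 lower in 2i p5 against 2i. A fold of at least 1.5 left 2298 higher and 955 lower in ETR-tKO against N16h, 2263 lower at N16h against 2i, 2346 higher and 641 lower in ETR-tKO against 2i p5, and 217 higher and 1945 lower in 2i p5 against 2i, by construction fewer. Without the FPKM minimum 1619 genes were higher at N16h against 2i and 540 in 2i p5 against 2i, and 590 upward and 490 downward exit genes went the same way in ETR-tKO. With only the libraries compared, 2380 were lower at N16h against 2i, and 184 higher and 1971 lower in 2i p5 against 2i; the cause was not tested. With no fold minimum, an alternative added after seeing the data, 631 upward and 696 downward exit genes went the same way. Leaving out 1 library gave 3134 to 3775 higher and 1420 to 1654 lower in ETR-tKO against N16h, 849 to 1444 and 2957 to 5643 at N16h against 2i, 3597 to 4549 and 884 to 1072 in ETR-tKO against 2i p5, 4235 to 7289 positive and 435 to 675 negative differences, and 234 to 306 upward and 277 to 363 downward exit genes. In 2i p5 against 2i it gave 247 to 435 higher and 2778 to 7198 lower, the lowest without RGd2 2i replicate 31. Of the 240 listed genes, 4 lost the call with TMM, 5 with median-of-ratios factors, 6 with the line as a term, 64 with a fold of at least 1.5 and 9 to 17 without 1 library, and TMM added 36. No paired analysis was possible because the groups compared share no replicate numbers; the RGd2 groups share a parental and a clonal line, and with the line as a term each count stayed within 1.5 times. Genes under the FPKM minimum were not called by rule; without it 4964 were higher and 2455 lower in ETR-tKO against N16h. List medians near 0 changed sign: ERK feedback inhibitors (−0.10 with median-of-ratios factors and −0.03 without RGd2 replicate 24), ribosomal proteins (−0.10 and, without RGd2 replicate 22, −0.02), general pluripotency (0.05 without ETR-tKO replicate 13) and primitive endoderm markers (−0.02 without RGd2 replicate 23).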
